A study of Mus musculus with 12 samples.

Results

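The clustered histone genes of the mouse lie in the groups named Hist1 to Hist4 and supply the bulk of the histone protein that is packed onto DNA while it is copied. They were described here in lung cells sorted at 4 stages around birth. Members were all genes of the deposited table whose symbol begins with Hist1h, Hist2h, Hist3h or Hist4h, without names marked as pseudogenes by the ending -ps, and with a deposited value of at least 10 in at least 3 libraries. The symbol rule found 67 genes of 28004 in the table, and 64 of these met the value rule: 6 linker histone H1, 17 H2A, 17 H2B, 11 H3 and 13 H4 genes. Of the 64, 53 are named for the Hist1 group, 8 for Hist2, 2 for Hist3 and 1 for Hist4. Hist1h2ao, Hist2h2aa2 and Hist1h2bq did not meet it. Hist2h2aa2 and Hist1h2bq lay just outside, at no more than 1.47 and 0.272 CPM in any library (CPM are deposited values scaled to a common library total). Hist2h2be and Hist1h2aj lay just inside, at no more than 3.65 and 0.841 CPM.

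The study sequenced RNA of 12 libraries of mouse lung cells, with 3 libraries per stage. All 12 share the genotype Acta2-dsRed+, Pdgfra-GFP+, and they fall into 4 ages without treatment: 1 before birth (embryonic, E17.5) and 3 after it (postnatal, P3, P7 and P10). The cells came from dissociated whole lung and were sorted by flow cytometry for both reporters, so the population is defined by reporter fluorescence at the time of sorting and can hold more than 1 cell type. No strain is named. The labels do not say whether libraries of the same age are different animals, and the p-values below can therefore reflect no more than the variation among these libraries, technical variation included. The series title places the work in lung alveolar morphogenesis, and the comparisons of successive stages ask how these cells changed across birth and in the first postnatal days.

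Histones H2A, H2B, H3 and H4 form the core particle around which DNA is wrapped, and H1 binds the linker DNA between particles. Most clustered histone genes are transcribed in S phase, when a cell copies its genome, and their messenger RNAs are unusual in that they end in a short stem-loop in place of a poly(A) tail. The stem-loop is bound by the protein encoded by Slbp, and transcription is driven through the coactivator encoded by Npat in nuclear histone locus bodies. In the lung before and after birth, myofibroblasts that shape the alveolar walls carry both reporters, and they are known to divide and expand in this period.

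The stem-loop is the sequence feature that sets these transcripts apart, and its letters are shown because the handling of tail-less RNA bears on every level below. In GENCODE release M21 transcripts, 42 of 64 members (65.6%) held the histone stem-loop pattern on their own strand after the coding end (a stem of paired bases around a loop rich in T), against 0.177% of 19819 other coding genes. The other 22 members showed no match in their annotated transcript, and in 12 of these the annotation stops at the coding end. Capitals mark both arms of the stem and small letters the loop, with T in place of U. The first form was found in 22 members of classes other than H4, the second in 6 of those, the third in 7 H4 genes and the fourth in 2 H4 genes.
Hist1h1e and 21 others: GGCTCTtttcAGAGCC
Hist1h3c and 5 others: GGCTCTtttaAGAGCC
Hist1h4d and 6 others: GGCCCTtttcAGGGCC
Hist1h4b and Hist1h4j: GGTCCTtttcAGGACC
Among the 42 matches no H4 gene had the stem of the first pair of lines, and no H1, H2A, H2B or H3 gene a stem of the last pair. Hist2h2be, whose annotated transcript is 2620 nt long, held no match.

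Promoters are shown because the members moved together across the stages described below. RefSeq promoters (GRCm38.p6, 250 bases before to 50 after the start) were matched for 57 of 64 members. The gene with the highest level in each class that had a promoter there was chosen. Capitals mark the CCAAT box, the TATA box spelled TATAAA and an octamer spelled ATTTGCAT, each searched on both strands, with overlaps between motifs allowed.
Hist1h1e, chr13:23622509-23622808, minus strand: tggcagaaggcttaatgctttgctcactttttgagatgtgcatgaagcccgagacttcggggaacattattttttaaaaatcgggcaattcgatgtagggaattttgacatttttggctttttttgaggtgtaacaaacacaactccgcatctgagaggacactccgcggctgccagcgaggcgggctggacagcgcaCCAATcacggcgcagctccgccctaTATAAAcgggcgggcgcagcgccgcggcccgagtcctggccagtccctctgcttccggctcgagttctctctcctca
Hist1h2ai, chr13:21716162-21716461, plus strand: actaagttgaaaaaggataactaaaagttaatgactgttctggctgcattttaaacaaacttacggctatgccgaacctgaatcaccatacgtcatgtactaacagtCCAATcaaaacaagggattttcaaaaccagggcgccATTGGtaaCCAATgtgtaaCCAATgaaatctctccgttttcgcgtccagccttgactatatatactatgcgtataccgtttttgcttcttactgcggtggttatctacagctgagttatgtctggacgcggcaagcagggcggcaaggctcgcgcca
Hist2h2bb, chr3:96269450-96269749, plus strand: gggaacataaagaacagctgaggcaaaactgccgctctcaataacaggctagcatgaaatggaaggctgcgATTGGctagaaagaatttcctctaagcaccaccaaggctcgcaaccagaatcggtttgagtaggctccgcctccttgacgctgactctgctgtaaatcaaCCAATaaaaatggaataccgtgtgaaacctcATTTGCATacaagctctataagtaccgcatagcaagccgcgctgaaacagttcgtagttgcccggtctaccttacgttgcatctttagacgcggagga
Hist1h3b, chr13:23752095-23752394, plus strand: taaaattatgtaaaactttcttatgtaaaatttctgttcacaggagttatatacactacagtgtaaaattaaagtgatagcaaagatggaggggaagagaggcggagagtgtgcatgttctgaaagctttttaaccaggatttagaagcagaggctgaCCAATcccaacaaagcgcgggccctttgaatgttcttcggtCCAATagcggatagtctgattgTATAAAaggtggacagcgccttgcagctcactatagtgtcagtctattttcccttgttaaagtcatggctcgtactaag
Hist1h4d, chr13:23581318-23581617, plus strand: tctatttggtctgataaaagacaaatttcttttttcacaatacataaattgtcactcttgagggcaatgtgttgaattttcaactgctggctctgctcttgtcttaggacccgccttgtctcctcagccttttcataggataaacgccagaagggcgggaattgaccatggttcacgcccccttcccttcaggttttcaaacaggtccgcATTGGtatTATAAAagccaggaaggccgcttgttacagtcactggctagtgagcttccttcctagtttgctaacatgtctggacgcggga
CCAAT was found in 84.2% of the members' promoters, against 37.4% of 32851 RefSeq promoters of the same length. It stood in every H1, H2A, H2B and H3 promoter matched and in 3 of 12 H4 promoters (25%). TATAAA was found in 59.6% of the members' promoters, against 13.6% of all. The octamer was found in 6 of 15 H2A and 7 of 15 H2B promoters and in none of the H1, H3 or H4 promoters matched, which gives 22.8% of members against 1.74% of all promoters. A match is a run of letters and does not show that a factor binds there.

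**Figure D1:**
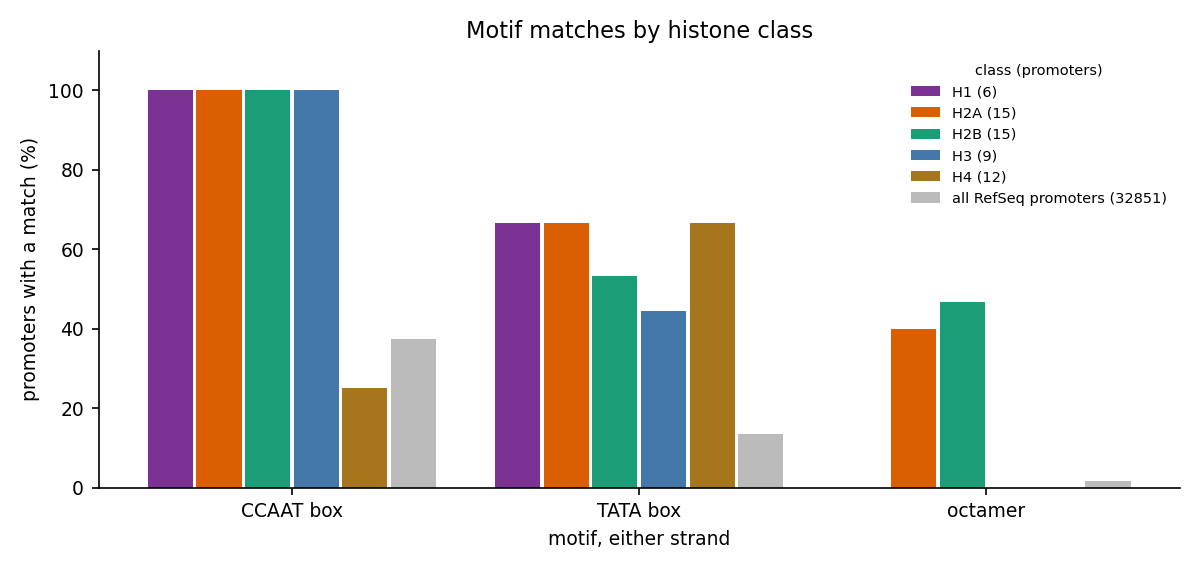
Bars give the share of promoters (vertical axis, percent) with at least 1 match to each motif on either strand, by histone class and for all RefSeq promoters, with the number of promoters in the legend. H4 promoters stood at 25% for the CCAAT box where the other classes stood at 100%, and octamer matches were found in H2A and H2B promoters only among the 5 classes.

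Totals of the deposited values were 13328623 to 18740591 per library, and the small structural RNA genes 7SL and 7SK took 20% to 46.3% of them. The deposited values look scaled by transcript length: among genes at 0 in at least 6 of 12 libraries, the smallest value above 0 had a median of 54 for transcripts up to 120 nt, 8 for 301 to 400 nt, 5 for 401 to 500 nt and 1 above 1000 nt. For a typical histone gene a value is therefore several times the number of reads behind it, and 0 is given as listed, with no upper limit. The labels name both polyA RNA and a total RNA kit, so the levels may stand for only a fraction of histone RNA, such as transcripts with a poly(A) tail, and how far tail-less transcripts were recovered was not tested. The 7 markers of the sorted population, Acta2 and Pdgfra among them, summed to 3273 to 7269 CPM per library, and none of the 7 was at 0 in all 3 libraries of a stage. Markers of other cell types were lower: 8 alveolar epithelial genes summed to 53.6 to 237 CPM, 5 airway epithelial genes to 14.9 to 251 CPM, 6 erythroid genes to 12.5 to 179 CPM, and the immune, endothelial and mesothelial lists to at most 24.6, 53.7 and 12.7 CPM. Airway epithelial markers averaged 18.5 ± 5.34, 112 ± 25.4, 148 ± 28.8 and 176 ± 93.7 CPM in order of age, and erythroid markers 156 ± 34.3, 45.9 ± 12.2, 31.0 ± 16.5 and 43.0 ± 14.1 (SD, n = 3). Most of the airway sum came from Tppp3 and Scgb1a1. Foxj1 and Krt5 of the same list stayed at or below 0.676 and 0.0647 CPM in every library. At most 2 genes of a list were at 0 in all 3 libraries of a stage. The part of these cells in the histone levels was not tested.

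The mean summed level of the 64 genes was highest at P3 and lowest at P10. On the scale of CPM of the deposited, length-scaled values the stage means in order of age were 3816 ± 1016, 9558 ± 2101, 7010 ± 3387 and 2902 ± 1769 (SD, n = 3). The E17.5 libraries stood at 3186, 3273 and 4989 CPM, those of P3 at 9698, 7390 and 11586, those of P7 at 10834, 4388 and 5808, and those of P10 at 4943, 1951 and 1812. All P3 sums lay above all E17.5 sums, whereas the ranges of P7 and P3, of P10 and P7 and of P10 and E17.5 overlapped. The distance between P10 and E17.5 depended on the scaling. As a share of each library's deposited total, the members took 0.283%, 0.192% and 0.510% at E17.5. At P10 they took 0.498%, 0.206% and 0.267%. The sum at P3 was 2.5 times that at E17.5, the sum at P7 0.733 times that at P3, and the sum at P10 0.414 times that at P7 and 0.761 times that at E17.5. In RNA of a sorted population, fewer dividing cells and less histone RNA per cell cannot be told apart.

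Every class showed this course. At P3 against E17.5 the summed level was 3.40 times as high for H3, 2.9 for H2B, 2.5 for H2A, 2.38 for H4 and 1.84 for H1. H2A made up the largest share of the members' sum at each stage, 41.7%, 42.3%, 38.7% and 43.5% in order of age, and H3 the smallest, 6.5%, 8.76%, 9.19% and 7.73%. H1 made up 13.7%, 10.2%, 12.8% and 11.2%. Part of the H2A share came from a single gene, Hist1h2al, which is treated with its class below.

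**Figure D2:**
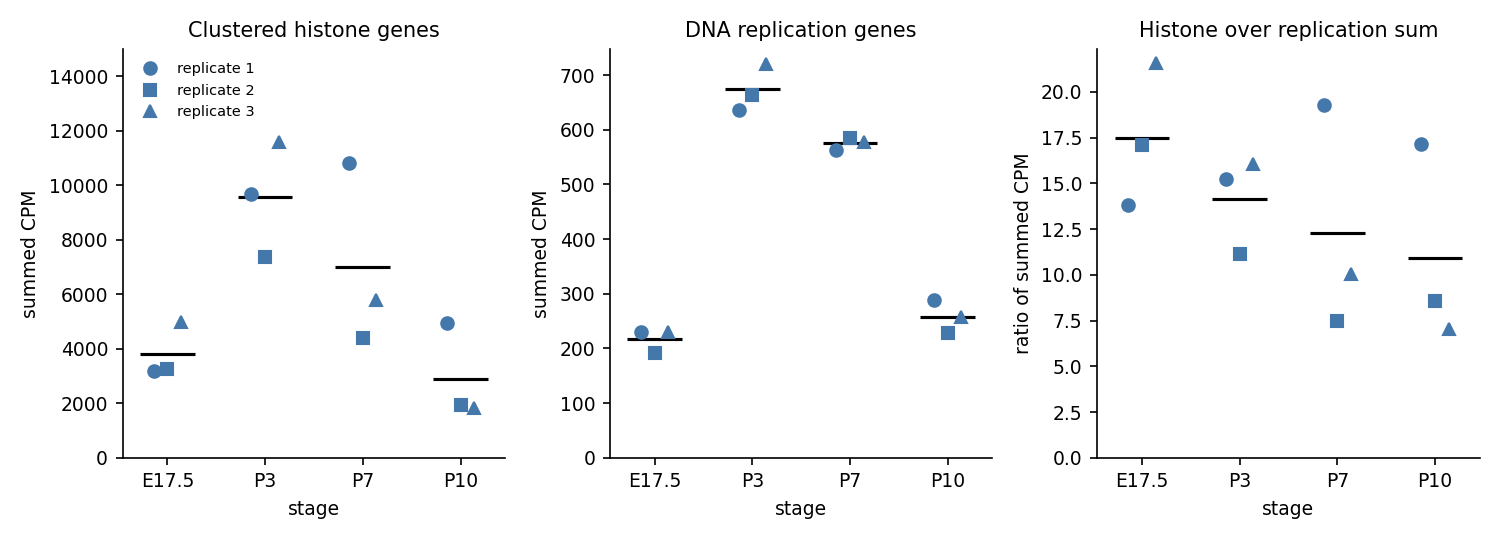
Points are single libraries (circle, square and triangle for replicates 1, 2 and 3) and lines stage means, over the 4 stages on the horizontal axis. The left plot gives the summed CPM of the 64 histone genes, the middle plot that of 25 DNA replication genes and the right plot their ratio. At P7 the histone sum ran from 4388 to 10834 CPM while the replication sum ran from 562 to 585 CPM.

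Across birth, 21 of the 64 genes rose and 1 fell at P3 relative to E17.5 (edgeR quasi-likelihood test, adjusted p under 0.05 over 16827 genes), where 13.1% of all tested genes rose and 12% fell. The estimate was positive for 61 of 64 genes (46.8% of all tested genes) and negative for 3 (53.1%), with a median log2 fold change of 1.52 against -0.05 over all tested genes. The libraries of P3 lay above those of E17.5 without overlap for 47 genes, which was so for 19.3% of all tested genes, and below them for 2 genes (19.6%). Without adjustment, 39 genes had a p under 0.05 (37% of all tested genes). The count rested on single libraries. Without E17.5 replicate 1 it was 1, and without E17.5 replicate 2, P3 replicate 1 or P3 replicate 3 it was 2 each. Without P7 replicate 3 it was 11 and without P10 replicate 1 it was 32. The members' median log2 fold change in these fits lay between 1.34 and 1.55. In the order named, they called 3664, 2968, 3170, 3462, 3724 and 4305 of 17696 to 17776 tested genes in either direction. The main fit called 4225 of 16827. With a minimum fold of 1.5 as the null no member passed, and with no filter on low values 6 did. These fits called 1255 of 16827 and 3475 of 28004 genes in either direction.

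Among the linker histones, Hist1h1a and Hist1h1b rose at P3 and the other 4 did not pass. Hist1h1b (RefSeq name H1f5, chr13:21779883-21780625, minus strand) stood at 42.5, 22.9 and 59.4 CPM in the E17.5 libraries, 176, 146 and 248 in those of P3, 262, 95.6 and 113 in those of P7 and 99.9, 25.2 and 33.2 in those of P10. Its P3 libraries all lay above its E17.5 libraries, with a log2 fold change of 2.19 (SE 0.62, edgeR adjusted p = 0.0289). Hist1h1a rose by 1.98 (SE 0.59, edgeR adjusted p = 0.0347) to 155 ± 22.5 CPM at P3, against 39.1 ± 9.84 at E17.5 (SD, n = 3). The most abundant linker gene, Hist1h1e (H1f4, chr13:23620629-23622558, minus strand), behaved differently across birth: it stood at 210, 199 and 393 CPM in the E17.5 libraries, from 296 to 401 in those of P3, 433, 256 and 342 in those of P7 and 175, 112 and 113 in those of P10. Its P3 and E17.5 libraries overlapped, with a log2 fold change of 0.43 (SE 0.30, edgeR adjusted p = 0.321). Hist1h1c (H1f2) gave 0.06 (SE 0.33, edgeR adjusted p = 0.923), at 119 ± 14.6 CPM at P3 and 114 ± 38.0 at E17.5. The annotated Hist1h1e transcript shares 23.8% of its 50-nt stretches with a long Hist1h2be transcript that runs through the locus, so reads may have been split between them. Hist1h1t, a linker histone known from the testis, stayed at or below 3.04 CPM in every library.

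In the H2A class 6 of 17 genes rose at P3 and none fell, with a median log2 fold change of 1.96. The largest fold change of a passing member of the whole set was that of Hist1h2ah (chr13:22035164-22035568, minus strand), a core histone gene paired head to head with Hist1h2bk. It stood at 5.23, 1.75 and 9.65 CPM in the E17.5 libraries, 82.7, 36.6 and 86.1 in those of P3, 78.0, 28.1 and 16.2 in those of P7 and 20.5, 1.55 and 5.74 in those of P10, and its log2 fold change at P3 was 3.59 (SE 1.0, edgeR adjusted p = 0.0291). Hist1h2ai (chr13:21716422-21716814, plus strand), whose promoter is printed above, stood at 128, 117 and 254 CPM in the E17.5 libraries, 580, 517 and 850 in those of P3, 705, 238 and 340 in those of P7 and 332, 96.5 and 89.3 in those of P10. All 3 of its P3 libraries lay above all 3 at E17.5, with a log2 fold change of 1.96 (SE 0.60, edgeR adjusted p = 0.0403). Hist1h2ae, Hist1h2ap and Hist1h2af rose by 2.5, 2.32 and 1.93 on the log2 scale, with edgeR adjusted p of 0.0259, 0.0442 and 0.0429. The Hist2 genes of the class behaved otherwise: Hist2h2aa1 stood at 398 ± 64.1 CPM at P3 and 285 ± 51.9 at E17.5 (SD, n = 3), with a log2 fold change of 0.48 that did not pass (edgeR adjusted p = 0.364), and Hist2h2ac gave 0.05 (edgeR adjusted p = 0.947). Most H2A genes share sequence: of all 50-nt stretches of Hist1h2ai, 9.9% are found in no other gene, so the levels of single copies are uncertain.

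Hist1h2al had the highest level of all members, 321, 571 and 770 CPM in the E17.5 libraries, 1062, 818 and 1318 in those of P3, 1132, 480 and 669 in those of P7 and 334, 213 and 195 in those of P10. GENCODE annotates it as a processed pseudogene at chr13:51202727-51203065, far from the Hist1 group, and RefSeq calls it H2af-ps2. It shares 65.5% of its 50-nt stretches with the model Gm20634, which also holds much of Hist2h2aa1 and Hist2h2aa2, so which locus gave the reads cannot be told from the table. Its log2 fold change at P3 of 0.94 did not pass (SE 0.38, edgeR adjusted p = 0.0992). Without this gene the summed level at P3 was 2.60 times that at E17.5.

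In the H2B class 4 genes rose at P3, 1 fell and the median log2 fold change was 1.68. Hist2h2bb (chr3:96269752-96270132, plus strand), the most abundant H2B gene, stood at 159, 196 and 261 CPM in the E17.5 libraries, 477, 365 and 607 in those of P3, 512, 228 and 295 in those of P7 and 270, 136 and 119 in those of P10. Its P3 libraries lay above its E17.5 libraries, with a log2 fold change of 1.23 (SE 0.38, edgeR adjusted p = 0.0375). Hist1h2bn and Hist1h2bj rose by 2.25 (SE 0.64, edgeR adjusted p = 0.0309) and 2.54 (SE 0.67, edgeR adjusted p = 0.0226). For Hist1h2bk and Hist1h2bl the P3 libraries also lay above those of E17.5, at 170 ± 49.1 CPM against 50.2 ± 25.6 and 134 ± 50.1 against 29.2 ± 14 (SD, n = 3), without passing (edgeR adjusted p = 0.0933 and 0.0733). Hist2h2be (chr3:96221119-96223738, plus strand) was the exception. It stood at 3.19, 2.53 and 3.65 CPM in the E17.5 libraries, 1.91, 1.25 and 1.35 in those of P3, 1.20, 0.958 and 0.841 in those of P7 and 1.19, 1.10 and 1.42 in those of P10, so each of its postnatal libraries lay below each E17.5 library. It fell at P3, by 1.06 on the log2 scale (SE 0.27, edgeR adjusted p = 0.0151), a call that ended without E17.5 replicate 3, P3 replicate 2 or P3 replicate 3 (largest adjusted p = 0.0689). Its annotated transcript shares no 50-nt stretch with another gene. Hist3h2ba was also lower in each P3 library than in each E17.5 library, at 0.995 ± 0.713 and 2.48 ± 0.980 CPM, and did not pass (edgeR adjusted p = 0.345).

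All 11 H3 genes had P3 libraries above their E17.5 libraries without overlap, and 4 of them passed, with a class median of 1.84. Hist1h3b (chr13:23752267-23752886, plus strand), the most abundant H3 gene of the set, stood at 49.6, 24.9 and 60.1 CPM in the E17.5 libraries, 198, 134 and 286 in those of P3, 284, 107 and 147 in those of P7 and 125, 26.3 and 35.4 in those of P10. Its log2 fold change at P3 was 2.20 (SE 0.66, edgeR adjusted p = 0.0372). Hist2h3c2 and Hist1h3c rose most in the class, by 3.05 (SE 0.81, edgeR adjusted p = 0.0241) and 2.94 (SE 0.88, edgeR adjusted p = 0.0372), and Hist1h3d rose by 1.68 (SE 0.50, edgeR adjusted p = 0.0344). Hist2h3b, at 192 ± 47.8 CPM at P3 and 70.3 ± 19 at E17.5, did not pass (edgeR adjusted p = 0.0637), nor did Hist1h3i, at 71.4 ± 14.3 and 35.1 ± 18.6 CPM (edgeR adjusted p = 0.355).

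In the H4 class 5 of 13 genes rose at P3, with a median log2 fold change of 1.02. Hist1h4k (chr13:21750194-21750505, minus strand) stood at 92.2, 134 and 153 CPM in the E17.5 libraries, 473, 327 and 457 in those of P3, 350, 185 and 225 in those of P7 and 149, 69.7 and 47.1 in those of P10. Its log2 fold change at P3 was 1.73 (SE 0.41, edgeR adjusted p = 0.0120). It was the only named riser that passed without each of the 12 libraries in turn, with a largest adjusted p of 0.0496. Hist1h4d (chr13:23581598-23582735, plus strand), the most abundant H4 gene, stood at 169, 269 and 189 CPM in the E17.5 libraries, 483, 395 and 662 in those of P3, 421, 355 and 464 in those of P7 and 246, 74.9 and 96.8 in those of P10. It rose by 1.29 (SE 0.40, edgeR adjusted p = 0.0389), and Hist1h4b rose by 1.86 (SE 0.56, edgeR adjusted p = 0.0372). Hist1h4h overlapped between P3 and E17.5 libraries, with a log2 fold change of 0.84 (SE 0.38, edgeR adjusted p = 0.143). Hist1h4m was listed at 0 in E17.5 replicate 2 and P3 replicate 3 but at 103 and 150 CPM in other libraries of those stages, and it shares 89.8% of its 50-nt stretches with its neighbour Hist1h4n. Hist4h4, alone on chromosome 6, gave a log2 fold change of -0.10 (edgeR adjusted p = 0.871).

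**Figure D3:**
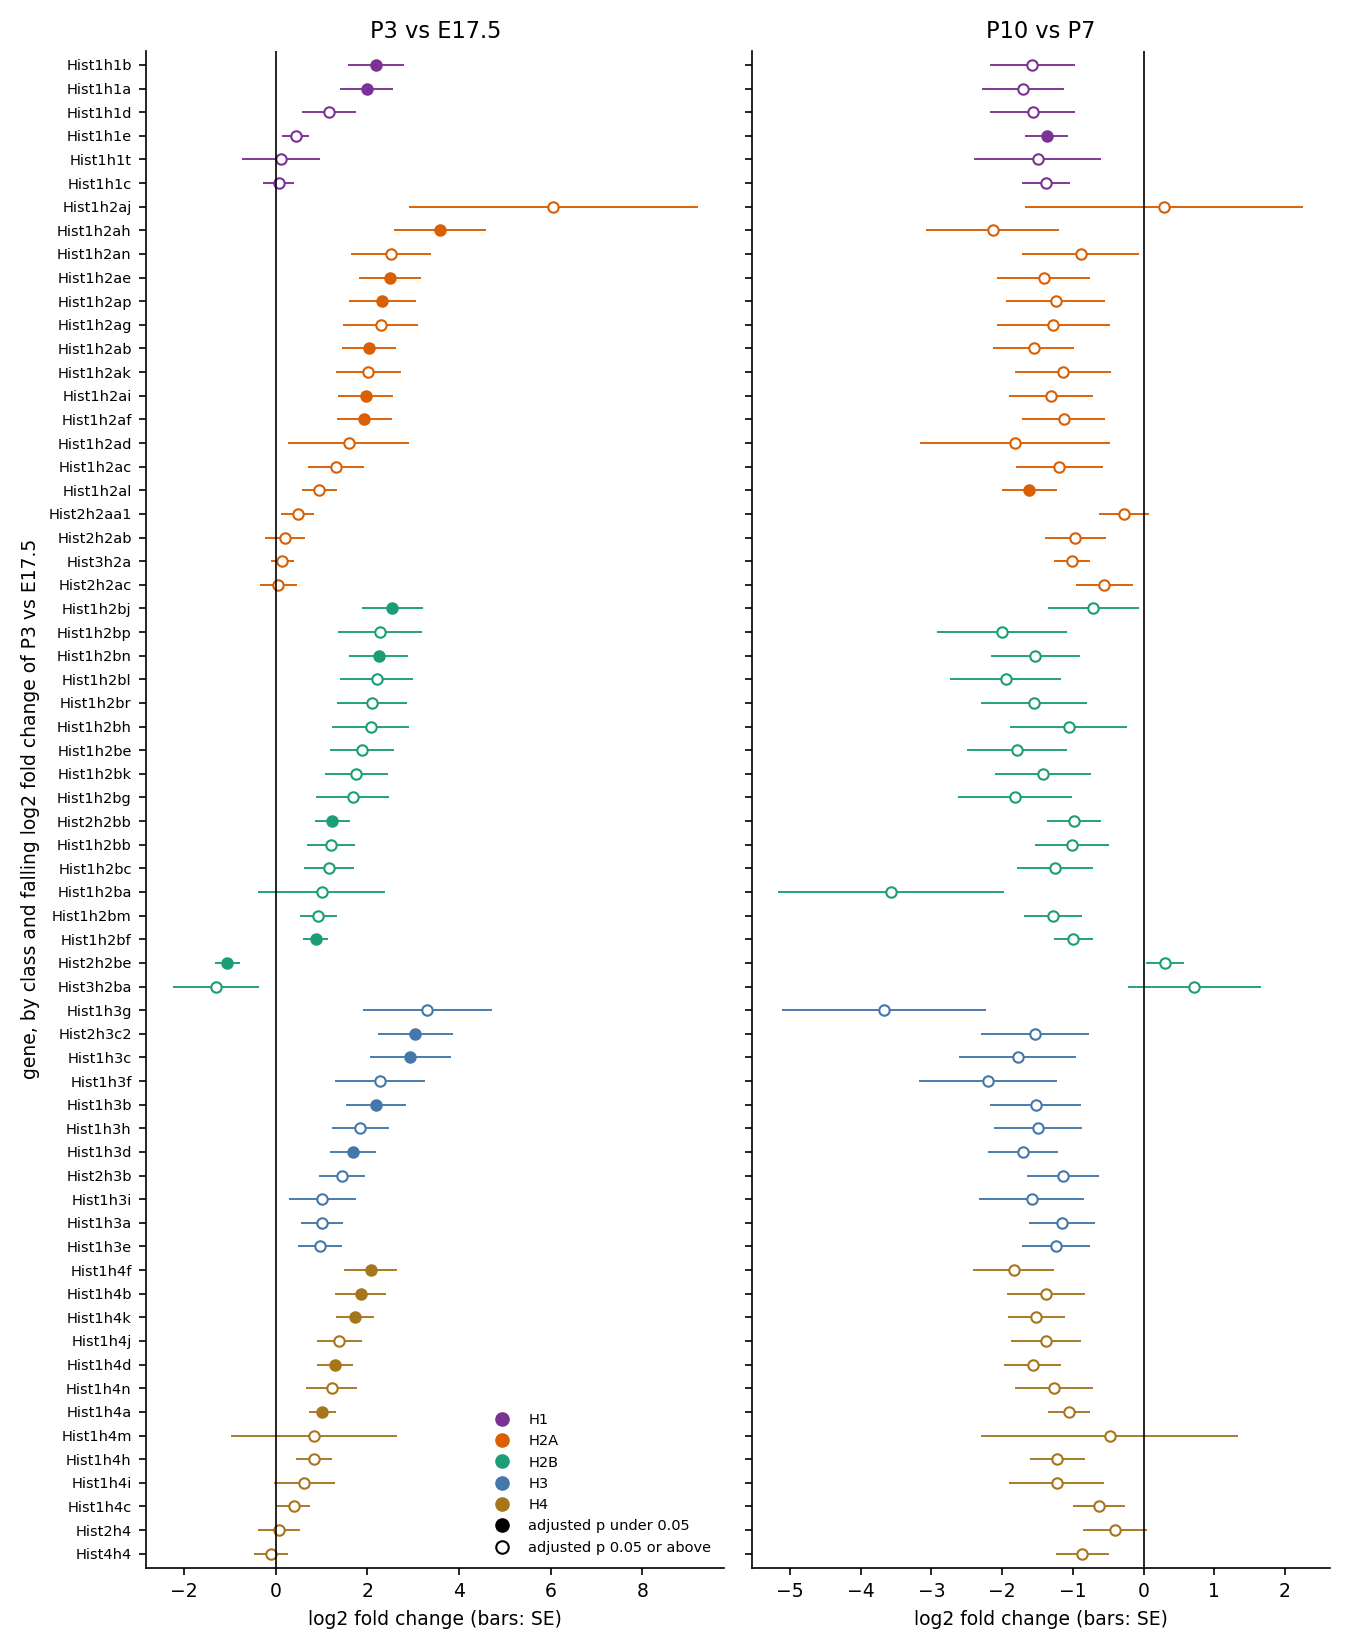
Each row is 1 of the 64 genes, coloured by class and ordered within it by the log2 fold change of P3 vs E17.5; points are estimates, bars their SE, and filled points passed at an adjusted p under 0.05. In the left plot 61 of 64 estimates lie above 0, and in the right plot, P10 vs P7, 61 of 64 lie below 0 with 2 filled.

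By the group named in the symbol, the medians were set side by side without a test of their difference. At P3 against E17.5 the 53 genes of Hist1 had a median log2 fold change of 1.76, with 19 higher and 0 lower, and the 11 genes of Hist2, Hist3 and Hist4 one of 0.15, with 2 higher and 1 lower. The summed level was 2.71 times and 1.73 times as high in these 2 groups of genes. The Hist1 genes made up 85.4% ± 0.568 of the members' sum at P3 and 78.7% ± 1.66 at E17.5 (SD, n = 3), and 78.0% ± 3.43 at P10. These shares include Hist1h2al, at means of 554 CPM at E17.5 and 1066 CPM at P3, which carries the Hist1 symbol but lies far from the group. Head-to-head pairs of H2A and H2B genes with overlapping promoter windows numbered 8 among the members, all in Hist1. Both partners had a positive estimate in all 8 pairs, but so had all 53 Hist1 genes, so this was not particular to the pairs. Exactly 1 partner passed in 7 pairs, and none passed in the pair of Hist1h2an and Hist1h2bp, whose log2 fold changes were 2.52 and 2.27. Partners differed by 0.22 to 1.83 on the log2 scale, the most for Hist1h2ah and Hist1h2bk (3.59 and 1.76).

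Transcript length entered the values through the scaling and was set against the fold changes for that reason. The 48 members with annotated transcripts under 1000 nt had a median log2 fold change at P3 of 1.70, with 18 higher, and the 16 with transcripts of 1000 nt or more one of 1.23, with 3 higher and 1 lower. Values multiplied back by annotated length gave 26 higher members, among them all 21, with a median of 1.47 over the 63 members then tested. Sequence shared between copies was the other property of the annotation. Of 34 members with at least 50% of their 50-nt stretches found in no other gene 8 rose and 1 fell, with a median of 1.09, and of 30 members under that share 13 rose, with a median of 1.95. These splits use the annotation, and the difference between their medians was not tested.

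**Figure D4:**
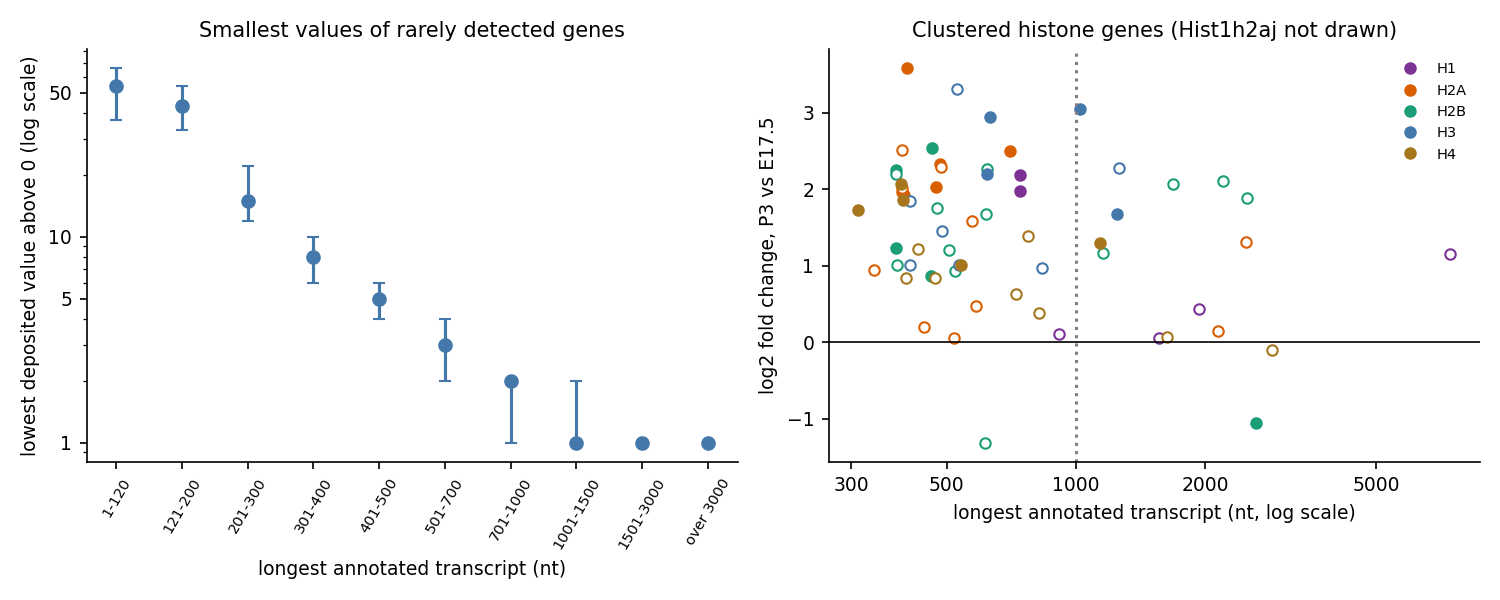
The left plot gives the smallest deposited value above 0 (log scale; points are medians, bars quartiles) of genes at 0 in at least 6 of 12 libraries, by length of the longest annotated transcript; it was 54 for the shortest class and 1 above 1000 nt. The right plot sets the log2 fold change of P3 vs E17.5 of 63 members against transcript length, with the 1000 nt split dotted and passing genes filled; Hist1h2aj, listed at 0 in every E17.5 library, is left out.

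Between P3 and P7 no member passed in either direction, as for 0% of all tested genes that were higher and 0.00594% that were lower. The estimate was negative for 63 of 64 genes at P7 relative to P3 (49% of all tested genes) and positive for 1 (50.9%), with a median log2 fold change of -0.44 against 0.01 over all tested genes. Without adjustment, 1 gene had a p under 0.05 (14.3% of all tested genes), Hist1h2bj, at 30.6 ± 8.25 CPM at P7 and 86.9 ± 26.1 at P3 (SD, n = 3). DESeq2 and limma-voom called no member either, while they called 730 and 18 of 16827 genes in either direction. P7 replicate 1 stood as high as the P3 libraries, and without it the members' median was -1.01. In that fit 0 of 17732 tested genes passed, so the absence of passing members there says nothing particular to them.

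From P7 to P10 most members had lower values, but few passed. At P10 relative to P7, 2 genes fell and none rose, where 2.25% of all tested genes fell and 1.4% rose. The estimate was negative for 61 of 64 (48.8% of all tested genes) and positive for 3 (51.1%), with a median log2 fold change of -1.34 against 0.01 over all tested genes, and 34 genes had a p under 0.05 without adjustment (20.2%). The ranges did not overlap for 19 genes, all lower at P10 (15% of all tested genes). The 2 genes were Hist1h1e, with a log2 fold change of -1.37 (SE 0.30, edgeR adjusted p = 0.0377), and Hist1h2al, with -1.62 (SE 0.39, edgeR adjusted p = 0.0496). Hist1h1e stood at 133 ± 36.3 CPM at P10 and 344 ± 88.6 at P7, and Hist1h2al at 248 ± 75.7 and 760 ± 336 (SD, n = 3). Hist1h1c, Hist1h4d and Hist1h4k were next, with log2 fold changes of -1.38, -1.57 and -1.51 that did not pass (edgeR adjusted p = 0.0537, 0.0614 and 0.0684), although none of their P10 libraries reached a P7 library.

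The count at P10 relative to P7 depended on single libraries, and it was largest without P10 replicate 1. P10 replicate 1 was the highest P10 library for 58 of 64 members, and its markers of other cell types were the lowest of P10 in each of the 6 lists. Without it, 27 members fell at P10 relative to P7 and their median log2 fold change was -2.14, while 790 of 17719 genes passed in either direction. Without E17.5 replicate 2 the count was 1, and without any single library of P3 or P7, P10 replicate 2 or P10 replicate 3 it was 0. Calls over all 17463 to 17776 tested genes also changed in these fits. In either direction they numbered 651 without E17.5 replicate 2 and 291, 260 and 492 without P3 replicates 1, 2 and 3. Without P7 replicates 1, 2 and 3 only 55, 41 and 39 genes passed, and without P10 replicates 2 and 3 only 22 and 25. DESeq2 called 14 lower on all 12 libraries and limma-voom 7. Of all 16827 genes, DESeq2 called 1839 in either direction, limma-voom 863 and the main fit 613.

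Over the whole interval, at P10 relative to E17.5, 4 members fell and none rose, where 9.5% of all tested genes fell and 8.79% rose. The estimate was negative for 44 members (49.5% of all tested genes) and positive for 20 (50.4%). The median log2 fold change was -0.37 against 0.00 over all tested genes, but scaling by library totals turned it to 0.06, with all genes then at 0.50 and no member passing. Without adjustment, 8 genes had a p under 0.05 (31.6%). Of the 4, Hist2h2be stood at 1.24 ± 0.167 CPM at P10 and 3.13 ± 0.564 at E17.5, with a log2 fold change of -1.33 (SE 0.27, edgeR adjusted p = 0.00616), and passed without each library in turn. Hist1h1c stood at 42.7 ± 17.7 and 114 ± 38.0 CPM (log2 fold change -1.42, SE 0.34, edgeR adjusted p = 0.0162), and Hist4h4 at 9.0 ± 3.21 and 22.9 ± 1.19 CPM (-1.35, SE 0.37, edgeR adjusted p = 0.0312). Hist1h1e gave -1.01 (SE 0.30, edgeR adjusted p = 0.0402), with the 3 P10 libraries at 112 to 175 CPM and the 3 E17.5 libraries at 199 to 393 CPM. All 4 have annotated transcripts of 1000 nt or more, and the 16 members of that length had a median of -0.58, the 48 shorter ones -0.22. The count was 10 without P10 replicate 1 and 1 without E17.5 replicate 3, P10 replicate 2 or P10 replicate 3. In the order named, these fits called 2761, 2898, 2144 and 2016 of all tested genes in either direction, and the main fit 3077.

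Tested over the 4 stages at once, 20 of 64 members differed, against 32.1% of all tested genes. By class these were 4 H1, 4 H2A, 5 H2B, 2 H3 and 5 H4 genes. Hist2h2be (edgeR adjusted p = 0.00328) and Hist1h4k (0.00725) came first. The count lay between 6 and 46 when a library was left out: it was 46 without P10 replicate 1, 10 without P7 replicate 3, 9 without E17.5 replicate 2, P3 replicate 1 or P10 replicate 2, 8 without E17.5 replicate 1 or P3 replicate 3, and 6 without P10 replicate 3. How many of all tested genes differed over the 4 stages in these fits was not counted.

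**Figure D5:**
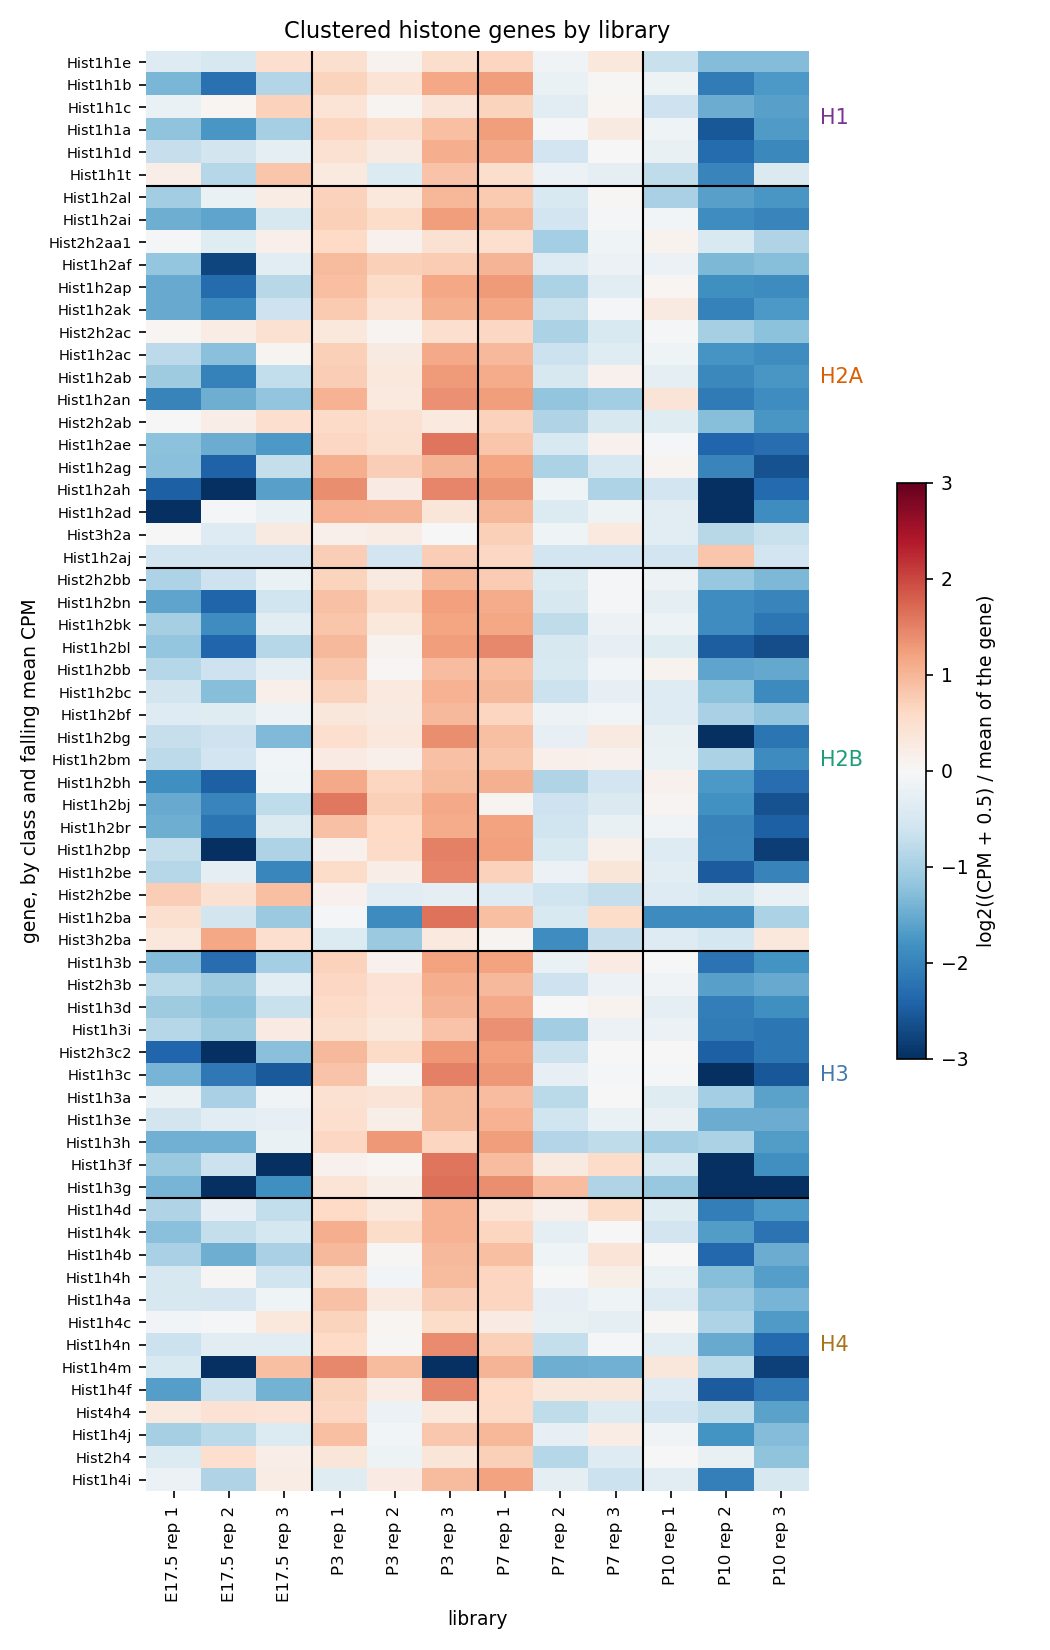
Rows are the 64 genes by class and columns the 12 libraries in order of age; colour gives log2 of CPM + 0.5 over the gene's mean, red above and blue below, with values past 3 drawn at 3. The column of P7 replicate 1 is red through the classes like the P3 columns, and P10 replicate 1 is paler than the other 2 P10 columns.

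Libraries of 1 stage differed more in histone genes than in others, and mostly for all members together. The coefficient of variation within a stage had a median of 50.3% over the members, 18.7% over 25 DNA replication genes and 12% over 7198 tested genes at 10 CPM or more. P7 replicate 1 was the highest P7 library for 63 of 64 members (34.9% of all tested genes), P10 replicate 1 for 58 of 64 (37.3%), and E17.5 replicate 3 and P3 replicate 3 for 46 of 64 each (33.7% and 37.3%). At P7 the DNA replication genes did not show this spread: they summed to 562, 585 and 578 CPM in replicates 1, 2 and 3, where the histone genes summed to 10834, 4388 and 5808. The marker of cycling cells Mki67 was likewise level at P7, at 90.9, 89.6 and 86.7 CPM. At P10 the same library was highest for both: the replication genes summed to 288, 228 and 257 CPM and Mki67 stood at 47.4, 27.7 and 31.4 CPM, where the histone genes summed to 4943, 1951 and 1812. P10 replicate 1 was the highest P10 library for 17 of 25 replication genes (68%). The ratio of the histone sum to the replication sum therefore ran from 7.06 to 21.6 over the 12 libraries. It lay between 13.8 and 21.6 in the E17.5 libraries, 11.1 and 16.1 in those of P3, 7.5 and 19.3 in those of P7 and 7.06 and 17.2 in those of P10, with overlapping ranges at all 4 stages.

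Markers of other cell types also differed within stages. In P10 replicate 1, where the histone sum was highest, all 6 lists of other cell types had their lowest P10 sum: endothelial markers summed to 9.2, 53.6 and 53.7 CPM in P10 replicates 1, 2 and 3, airway epithelial markers to 70.8, 205 and 251, alveolar epithelial markers to 53.6, 192 and 142, and erythroid markers to 27.0, 53.6 and 48.4. Markers of the sorted population were highest there, at 6254, 4611 and 4523 CPM. In P7 replicate 1 each of these lists but the alveolar epithelial one was likewise lowest, with endothelial sums of 13.8, 30.2 and 21.7 CPM and erythroid sums of 12.5, 44.1 and 36.4 in P7 replicates 1, 2 and 3. In P3 replicate 3, the highest P3 library for histone genes, the endothelial and both epithelial sums were the highest of P3. The part of these cells in the spread was not tested.

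The 25 genes of DNA replication, which copy the genome while histones are made, passed in a larger share than the histone genes. All 25 rose at P3 relative to E17.5, with a median log2 fold change of 2.05, 22 fell at P10 relative to P7, with a median of -1.44, and 5 rose at P10 relative to E17.5. Rrm2, which makes deoxyribonucleotides, rose at P3 to 45.9 ± 4.76 CPM, against 5.28 ± 1.22 at E17.5 (log2 fold change 3.11, SE 0.30, edgeR adjusted p = 8.33e-05), and Pcna, the sliding clamp of the replication fork, rose by 0.98 (SE 0.12, edgeR adjusted p = 0.000316). Mcm5, part of the replicative helicase, rose by 3.34 at P3 (edgeR adjusted p = 0.000181) and fell by 2.05 at P10 relative to P7 (edgeR adjusted p = 0.0170).

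Of 20 genes that make and process histone messenger RNA, 7 rose and 2 fell at P3, 1 fell at P10 relative to P7 and 1 at P10 relative to E17.5. Slbp, the stem-loop binding protein, rose at P3 to 71.7 ± 4.16 CPM, against 55.5 ± 1.26 at E17.5 (log2 fold change 0.37, SE 0.10, edgeR adjusted p = 0.0170), less than any passing histone gene. Npat was at 8.79 ± 0.776 CPM at P3 and 10.8 ± 1.25 at E17.5 (edgeR adjusted p = 0.129) and fell at P10 relative to E17.5, with a log2 fold change of -0.51 (edgeR adjusted p = 0.0233). Eri1, an exonuclease that trims the histone stem-loop end, rose by 0.80 at P3 (edgeR adjusted p = 0.00259), as did Lsm11 of the U7 particle, by 0.79 (edgeR adjusted p = 0.0423). The 2 that fell were the terminal uridylyltransferase genes Zcchc11 (-0.80, edgeR adjusted p = 0.00193) and Zcchc6 (-0.57, edgeR adjusted p = 0.0133). Cstf2, a cleavage factor subunit, was the gene that fell at P10 relative to P7 (-0.64, edgeR adjusted p = 0.0462).

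Histone genes outside the clusters, which are expressed with poly(A) tails and partly independently of replication, were mixed. Of 11, 5 rose and 1 fell at P3, 6 fell at P10 relative to P7 and 5 fell at P10 relative to E17.5. H2afz, which encodes the variant H2A.Z, rose at P3 to 314 ± 46.1 CPM, against 129 ± 8.64 at E17.5 (log2 fold change 1.29, SE 0.17, edgeR adjusted p = 0.000505). H2afx and Cenpa, for the damage-marked H2A.X and the centromeric H3, rose by 1.03 (edgeR adjusted p = 0.00507) and 1.64 (edgeR adjusted p = 0.000561). The replacement H3.3 genes H3f3a and H3f3b did not pass, with log2 fold changes of 0.19 (edgeR adjusted p = 0.297) and -0.00066 (edgeR adjusted p = 0.999), nor did the linker gene H1f0 at P3 (-0.43, edgeR adjusted p = 0.109). H1f0 fell at P10 relative to E17.5 (-0.79, edgeR adjusted p = 0.0130). H2afj fell at P3 by 0.93 on the log2 scale (edgeR adjusted p = 0.00227) and at P10 relative to E17.5 by 1.61 (edgeR adjusted p = 0.000102). H1fx fell at P10 relative to P7 (-1.32, edgeR adjusted p = 0.00814) and relative to E17.5 (-1.37, edgeR adjusted p = 0.000316), like the clustered linker genes Hist1h1c and Hist1h1e over the longer interval.

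Histone chaperones carry new histones to the fork and onto DNA. Of 22, 11 rose and 2 fell at P3, 6 fell at P10 relative to P7, and 2 rose and 2 fell at P10 relative to E17.5. Of the subunits of chromatin assembly factor, Chaf1b rose to 12.3 ± 2.0 CPM at P3, against 1.19 ± 0.111 at E17.5 (log2 fold change 3.35, SE 0.23, edgeR adjusted p = 1.34e-05), and Chaf1a by 1.89 (edgeR adjusted p = 0.000148). Asf1b, which hands over H3 and H4, rose by 2.71 (edgeR adjusted p = 0.0136). Nasp, which holds soluble H3 and H4, rose by 0.99 at P3 (edgeR adjusted p = 0.000251) and was still higher at P10 than at E17.5, at 78.3 ± 5.76 and 56.4 ± 1.53 CPM (0.47, edgeR adjusted p = 0.0168).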

How the data were processed

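The table analysed holds estimated counts per gene that the authors deposited as rounded whole numbers. Per the submitters' processing notes the build was GRCm38, and no aligner or quantifier is named there. Per the labels' protocols, a stranded total RNA kit for very small inputs was used, whereas the molecule is labelled polyA RNA. As read from the values, the authors' estimated counts look scaled by transcript length.

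TMM library sizes gave the CPM. Genes were tested in R 4.3.3 with the quasi-likelihood test of edgeR 4.0.16 (limma 3.58.1) after its filter on low values by stage, with 1 robust model over 12 libraries and Benjamini-Hochberg adjustment over 16827 genes at 0.05. The script was tested on simulated data. SE are of log2 fold changes. Lengths, positions and shared 50-nt stretches came from GENCODE M21, promoters from RefSeq GRCm38.p6. A symbol matched a RefSeq name for 67 of 67 genes. Named members were the 4 highest by mean CPM in each class, up to 8 passing members per direction and comparison, those passing in opposite directions, and those nearest the value rule. Other lists had fixed names plus the 2 leading genes per direction. Members and lists were chosen with earlier results of these data known. Alternatives were other scalings, filters, tools (DESeq2 1.42.0, limma-voom), length-rescaled values, a replicate block, a minimum fold and each library left out. Totals of 13328623 to 18740591 limit the precision of low genes. Replicate numbers were not taken to pair libraries across stages.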

Additional observations from a re-analysis of the deposited data

How the results depend on the processing

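Counts of passing members moved with the processing. The 24 named fold changes followed here are those that passed in the main fit. Of 576 alternatives over them, 383 kept direction and call, 193 kept direction without passing and 0 reversed. They were chosen by passing in these same libraries, so the lack of reversals does not extend to members that did not pass. For P3 vs E17.5, 21 members rose: scaling by totals gave 12, no filter 6, DESeq2 35, the 6 libraries alone 34, a minimum fold of 1.5 gave 0, and leaving out a library 1 to 32. The 1 lower member was 0 by totals, with the 6 libraries alone and with the minimum fold, and 0 to 1 with a library left out. For P10 vs P7, 2 fell: median-of-ratios size factors gave 1, totals 0, no filter 0, length-rescaled values 4, DESeq2 14, limma-voom 7, the 6 libraries alone 1, the minimum fold 0, and leaving out a library 0 to 27. For P10 vs E17.5, 4 fell: totals gave 0, no filter 2, the 6 libraries alone 2, the minimum fold 1, and leaving out a library 1 to 10. Over the 4 stages 20 differed: no filter gave 10, length-rescaled values 31, DESeq2 47, limma-voom 41, and leaving out a library 6 to 46. The causes of these shifts were not tested. Calls over all genes moved too. For P3 vs E17.5 they numbered 4225 in either direction in the main fit, 1499 by totals and 5111 by DESeq2. For P10 vs P7 they numbered 613 in the main fit, 7 by totals, 1839 by DESeq2 and 863 by limma-voom. Leaving out a library gave 2968 to 4305 for P3 vs E17.5, 22 to 790 for P10 vs P7 and 2016 to 3113 for P10 vs E17.5. With a library left out, ratios of summed levels stayed within 2.24 to 3.0 for P3 vs E17.5, 0.525 to 0.864 for P7 vs P3, 0.263 to 0.578 for P10 vs P7 and 0.492 to 0.905 for P10 vs E17.5.

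The replicate block gave 26 higher members for P3 vs E17.5, 1 lower for P10 vs P7 and 32 over the 4 stages. Correlations of the deviations of libraries with the same replicate number lay between -0.195 and 0.136, and 3 of 18 pairs were above 0.1. For libraries with different numbers they lay between -0.203 and 0.22, with 5 of 36 pairs above 0.1. With 3 libraries per stage this check is weak and cannot decide whether libraries were paired. Scaling by totals moved the median of all genes by 0.11 (P3 vs E17.5), 0.30, 0.06 and 0.50 (P10 vs E17.5). Summing members with identical proteins was not run, because no protein table was used here. Low values limit members such as Hist1h2aj, Hist3h2ba, Hist1h2ba and Hist1h1t.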

Other observations

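Malat1, a long RNA that is kept in the nucleus, was looked at after its values were seen because it was low in the libraries with high histone levels. It stood at 6806, 9246 and 9379 CPM in P7 replicates 1, 2 and 3, where the members summed to 10834, 4388 and 5808 CPM. At P10 it stood at 12844, 19273 and 19179 CPM, where the members summed to 4943, 1951 and 1812 CPM. At E17.5 it was 10913, 11312 and 10285 CPM and at P3 6274, 6602 and 6004 CPM, and in both stages the library with the highest histone sum had the lowest Malat1. It fell at P3 relative to E17.5 with a log2 fold change of -0.78 (SE 0.18, edgeR adjusted p = 0.00899) and rose at P10 relative to P7 with 1.01 (SE 0.18, edgeR adjusted p = 0.0197).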
